A study of Homo sapiens with 3 samples.

Results

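The genes described here are the enzymes that begin and carry out the attachment of ubiquitin: the E1 activating enzymes and the E2 conjugating enzymes. They were chosen by symbol, as genes named PSMA to PSMG plus a number, UBA plus a number, or a name starting with UBE2. The choice was made with earlier results of these arrays known. The rule leaves out 1 UBE2 gene by name, which is not reported here, and symbols that end in P and a number, taken as pseudogenes. In the annotation used here 29 of 14884 named genes met the rule, 4 of them E1 genes and 25 of the E2 family. None of the 29 is a proteasome subunit, because 0 probe sets carried the symbol of a PSMA to PSMG gene. The PSMA to PSMG subunits were therefore not analysed here, and the group is called the E1 and E2 genes below. Each of the 29 genes had 1 probe set.

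Affymetrix 1-colour arrays were run on A549 cells, a widely used line from a human lung cancer. The cultures had received siRNA against TAZ (siTAZ), siRNA against YAP (siYAP) or control siRNA (siNC), all with the same lipid reagent, 48 h before total RNA was extracted. There were 3 arrays, 1 for each siRNA, so no value carries an error, no difference could be set against the spread between cultures, and no test was possible. Levels are RMA values read as log2, differences are subtractions of log2 levels, and a fold is 2 raised to the difference.

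Ubiquitin is a small protein that is joined to other proteins in a relay. An E1 enzyme activates it with ATP, an E2 enzyme takes it over as a thioester, and an E3 ligase brings the loaded E2 to the substrate, which the proteasome may then degrade. UBA1 is the main ubiquitin E1 and UBA6 a second one, which also activates the ubiquitin-like protein FAT10. UBE2Z, also called USE1, is the E2 known to be loaded by UBA6 and not by UBA1. YAP and its paralog TAZ (gene symbol WWTR1) are co-activators at the end of the Hippo pathway that act mainly through TEAD transcription factors.

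UBA6 and UBE2Z, an E2 that UBA6 loads, were both lower on the siTAZ array and near the control level on the siYAP array. Because YAP and TAZ act through TEAD factors, the 250 bases before the start of each gene are shown here on the gene's own strand, from RefSeq on GRCh38.p14. Capitals mark letters of the core TEAD motif CATTCC, the AP-1 motif TGANTCA and the CCAAT box CCAAT, each searched on both strands; no matches overlapped in these 2 windows. The UBA6 window lies at chr4:67701156-67701405 on the minus strand and the UBE2Z window at chr17:48908157-48908406 on the plus strand.
UBA6: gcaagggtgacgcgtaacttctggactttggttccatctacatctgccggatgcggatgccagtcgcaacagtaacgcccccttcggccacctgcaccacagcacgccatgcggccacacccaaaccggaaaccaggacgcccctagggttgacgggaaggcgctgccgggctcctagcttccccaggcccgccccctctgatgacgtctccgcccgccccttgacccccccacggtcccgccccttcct
UBE2Z: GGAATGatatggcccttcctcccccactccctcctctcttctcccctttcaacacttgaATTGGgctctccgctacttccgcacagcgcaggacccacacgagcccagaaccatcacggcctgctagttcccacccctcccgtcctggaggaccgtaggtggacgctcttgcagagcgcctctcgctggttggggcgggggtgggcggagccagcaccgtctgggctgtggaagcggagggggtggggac

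The UBE2Z window opens with the minus-strand form of the TEAD motif, 250 to 245 bases before the start, and holds a CCAAT box on the minus strand 191 to 187 bases before it. No match was found in the UBA6 window. RefSeq promoters were matched for 22 of the 29 genes. The TEAD letters stood in 1 of these 22 windows, that of UBE2Z, and in 11.9% of 27305 windows of the same length. The AP-1 letters were in 0 of 22 windows and in 6.60% of all windows, and the CCAAT box was in 5 of 22 (UBE2E3, UBE2S, UBE2T, UBE2U and UBE2Z) and in 33.0% of all. GC content had a median of 69.0% in the 22 windows and 58.0% over all windows. A match is a run of letters and not a shown binding site.

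Both siRNA targets were lower on their own arrays. YAP1 was at 8.24 on the siTAZ array, 6.87 on the siYAP array and 8.45 on the siNC array, so 33.5% of the control level was left after YAP siRNA. WWTR1 was at 5.81 on the siTAZ array, 6.50 on the siYAP array and 6.50 on the siNC array, which left 62.2% after TAZ siRNA. Of the 29 E1 and E2 genes, 27 had a mean level at or above the filter of 4.27, the median over all probe sets, and so did 10768 of all named genes. UBE2U (2.09) and UBE2DNL (3.65) were below it, and each had an identical value on all 3 arrays. Epithelial genes gave signal (KRT18 at 11.38 on the siTAZ, 11.56 on the siYAP and 11.56 on the siNC array, EPCAM at 8.13, 8.19 and 8.23 in the same order). Both were lowest on the siTAZ array, with differences of -0.18 and -0.10 from the control. KRT8 (6.50, 6.55 and 6.50 in the same order) and KRT19 (6.44 on all 3 arrays) were dimmer. KRT7 was low on the siTAZ array alone, at 6.10, against 6.51 on the siYAP and 6.51 on the siNC array, and its part in the results was not tested. The lung lineage genes NKX2-1, SFTPB and SFTPC were at 5.04 or less on every array. They still passed the filter, so the genes it keeps include dim ones. Among markers of other cell types, 9 of 19 listed had a named probe set and 5 of these passed the filter. The macrophage marker CD68 was 0.57 higher on the siTAZ and 0.59 higher on the siYAP array than on the siNC array (8.43), and the fibroblast marker LUM was at 8.14 on the siTAZ, 8.10 on the siYAP and 7.45 on the siNC array, while CD14, VWF and THY1 were between 4.42 and 5.22 on each array and LYZ, DCN, KDR and PECAM1 were below the filter. The part of CD68 and LUM in the results was not tested.

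UBA6 had the largest difference of the 27 genes in the siTAZ comparison. It was at 7.69 on the siTAZ array, 8.45 on the siYAP array and 8.53 on the siNC array. The siTAZ value stood apart from 2 values that lay close together, and 55.9% of the control level was left. Its siTAZ minus siNC difference of -0.84 was a 1.79-fold lower level, rank 44 from the lowest of 10768 genes, and its siYAP minus siNC difference was -0.081. UBA6 was 1.69-fold higher on the siYAP than on the siTAZ array, rank 27 from the highest. In RNA of a whole culture, fewer cells that express a gene and less of its RNA per cell cannot be told apart.

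UBA1, the main ubiquitin E1, did not share this pattern. Its levels were 10.48 on the siTAZ array, 10.44 on the siYAP array and 10.44 on the siNC array, with identical siYAP and siNC values and a siTAZ difference of 0.042. UBA3, the catalytic subunit of the E1 for NEDD8, was at 8.63, 8.66 and 8.75 on the siTAZ, siYAP and siNC arrays, 0.12 and 0.092 below the control. NAE1, the other subunit of that E1 and outside the symbol rule, named for that link after the values were seen, differed from the control by less than 0.05 in both knockdowns. UBA7, the E1 for the interferon-induced modifier ISG15, had the same dim value of 4.41 on all 3 arrays.

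**Figure D1:**
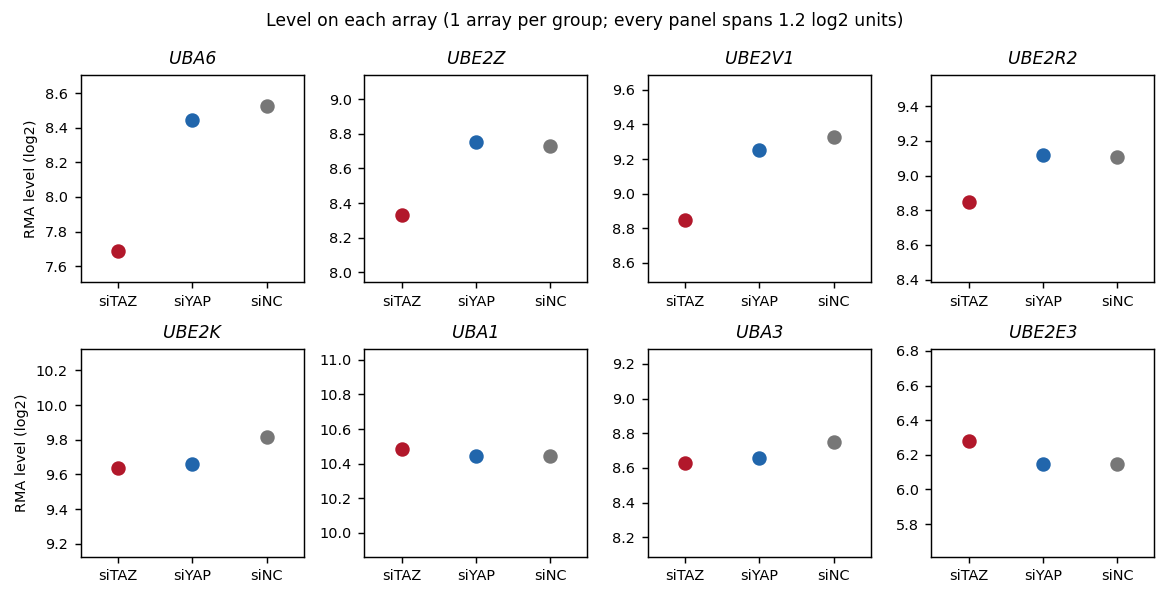
RMA level on the log2 scale (vertical axis, 1.2 units in each panel) of 8 genes on the siTAZ, siYAP and siNC arrays, 1 point per array and no error bars because each group had 1 array. UBA6, UBE2Z, UBE2V1 and UBE2R2 have a siTAZ point below 2 points that lie close together, UBE2K and UBA3 have both knockdown points below siNC, and UBE2E3 has its siTAZ point highest.

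UBE2Z was at 8.33 on the siTAZ array, 8.75 on the siYAP array and 8.73 on the siNC array. Its siTAZ value was the low one, 1.32-fold below the control (difference -0.40), while the siYAP value was 0.025 above it. BIRC6, a giant E2 and E3 hybrid enzyme that can also be loaded by UBA6, was named for that link after the values were seen. It was at 8.17 on both knockdown arrays and 8.32 on the siNC array, a difference of -0.16 in each, and so did not separate siTAZ from siYAP.

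UBE2V1 encodes a catalytically inactive E2 variant that pairs with UBE2N to build ubiquitin chains linked through lysine 63. It was at 8.85 on the siTAZ array, 9.25 on the siYAP array and 9.33 on the siNC array, which made it 1.40-fold lower after TAZ siRNA (difference -0.48) and left it 0.076 below the control after YAP siRNA. Its partner UBE2N had the same level of 4.80 on all 3 arrays, and its close paralog UBE2V2 the same level of 5.61. UBE2NL, a retrotransposed copy of UBE2N that RefSeq lists as a pseudogene, was at 4.33, 4.49 and 4.49 on the siTAZ, siYAP and siNC arrays, close to the filter. Probe sets of such near-identical copies may share signal, so the values of UBE2N and UBE2NL, and of UBE2V1 and UBE2V2, are uncertain to that extent.

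UBE2R2, a relative of CDC34 that serves cullin-RING ligases, was the fourth gene with a low siTAZ value. Its levels were 8.85 on the siTAZ array, 9.12 on the siYAP array and 9.11 on the siNC array. The difference of -0.26 from the control lies just past 1.2-fold. UBE2G1, another E2 used by cullin-RING ligases, was at 9.72 on the siTAZ and siNC arrays and 9.71 on the siYAP array.

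Counted over the 27 genes, 1 (UBA6) was lower by 1.5-fold or more on the siTAZ than on the siNC array and 0 were higher by as much, where 1.02% of all 10768 genes were lower and 0.762% higher. At 1.2-fold, 4 of 27 genes were lower (UBA6, UBE2V1, UBE2Z and UBE2R2), or 14.8%, and 0 were higher, where 4.89% of all genes were lower and 5.62% higher. The same 4 genes were at least 1.2-fold below both the siNC and the siYAP array, which 2.15% of all genes were; at 1.5-fold UBA6 alone was, beside 0.436% of all genes. Of the 27 genes, 10 were lower than the control on the siTAZ array by any amount, 6 were higher and 11 were identical, with a median of 0, whereas over all genes 21.7% were lower and 29.7% higher, also with a median of 0. Without genes of identical value the median was -0.084 over 16 E1 and E2 genes and 0.027 over all genes. Genes were chosen by name with earlier results of these arrays known, and 4 genes of 27 are few, so these shares are a description of 3 arrays. Of the 27, 19 passed a stricter filter at the 75th percentile, and the set of all genes was not matched to them in level.

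**Figure D2:**
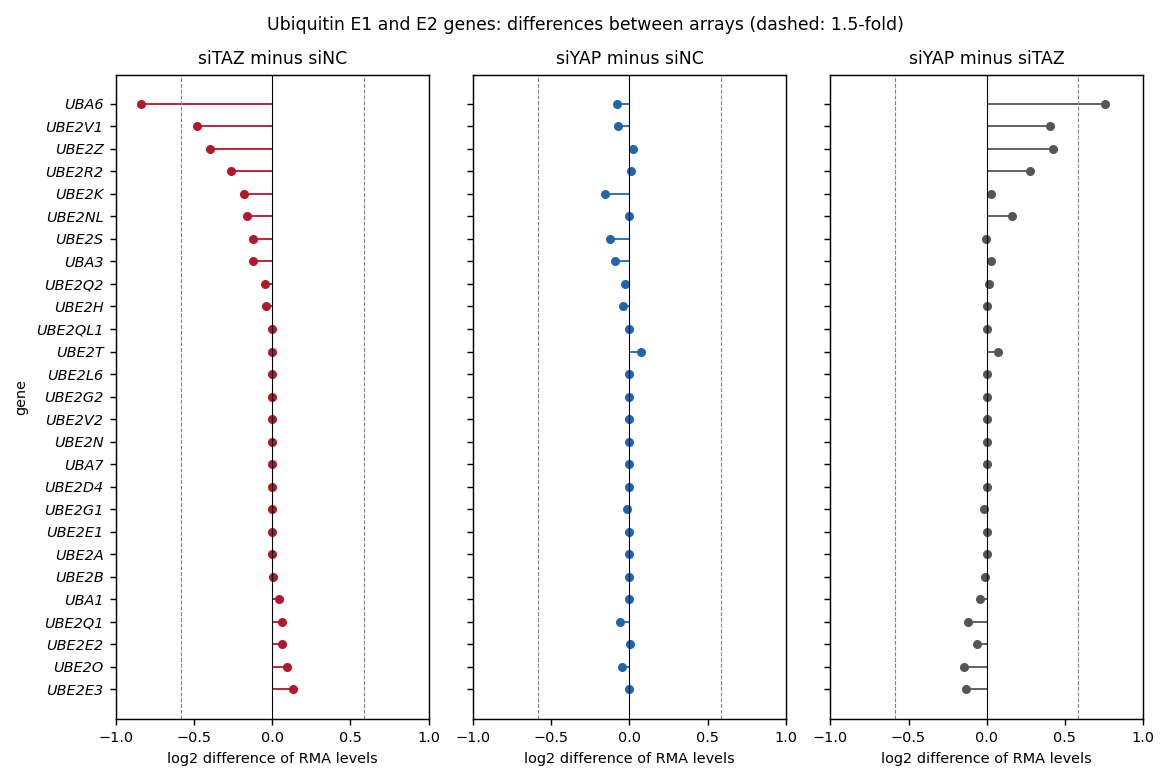
Difference of log2 RMA levels (horizontal axes) for the 27 E1 and E2 genes at or above the filter, ordered by siTAZ minus siNC, in 3 panels: siTAZ minus siNC, siYAP minus siNC and siYAP minus siTAZ. Each point is 1 gene and 1 pair of arrays, and dashed lines mark 1.5-fold; UBA6 is past the line in the left and right panels, and no gene is in the middle one.

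After YAP siRNA the differences of the E1 and E2 genes from the control were small. Of 27 genes, 0 were at least 1.5-fold lower or higher (0.381% and 0.52% of all genes). At 1.2-fold, 0 were lower or higher (3.15% and 4.05%). With only 27 genes, these counts of 0 are not set apart from the shares of all genes. By any amount, 10 were lower, 4 higher and 13 identical, with differences between -0.15 and 0.073; of all genes 21.7% were lower, 27.0% higher and 51.3% identical. The lowest was UBE2K, an E2 that builds lysine 48-linked chains, at 9.64 on the siTAZ array, 9.66 on the siYAP array and 9.81 on the siNC array. It was below the control by 0.18 and 0.15 on the siTAZ and siYAP arrays, so its pattern was shared by both knockdowns and differed from that of UBA6. UBE2S, the chain-elongating E2 of the anaphase-promoting complex, was at 6.88 on both knockdown arrays, 0.12 and 0.13 below the siNC array on the siTAZ and siYAP arrays, again low in both. The highest siYAP difference belonged to UBE2T, the E2 of the Fanconi anaemia pathway, at 9.07, 9.15 and 9.07 on the same arrays. The siTAZ and siYAP comparisons share the control array, so a low value in both and a high value of that 1 array cannot be told apart.

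UBE2H, an E2 of the CTLH ligase, and UBE2Q2 had small differences of the same kind. UBE2H was 0.041 below the control with identical knockdown values, and UBE2Q2 0.047 below it on the siTAZ and 0.030 below it on the siYAP array.

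Among genes with a higher level after TAZ siRNA the differences were smaller. UBE2E3, an E2 of the UBE2E family, was at 6.28 on the siTAZ array, 6.14 on the siYAP array and 6.14 on the siNC array, a difference of 0.13. UBE2O, a large enzyme that combines E2 and E3 activity, was at 7.48, 7.34 and 7.39 on the siTAZ, siYAP and siNC arrays and so lay on opposite sides of the control in the 2 knockdowns. UBE2E2 (0.065), UBE2Q1 (0.064), UBA1 (0.042) and UBE2B, a RAD6 homolog of DNA damage tolerance (0.0073), made up the rest of the 6 genes above the control. UBE2Q1 was 0.058 below the control on the siYAP array, and UBE2E2 0.0021 above it.

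Set directly against each other, the knockdown arrays do not involve the control array. The siTAZ array is shared with the siTAZ minus siNC comparison, however, so 1 low siTAZ value enters both. UBA6 was the only gene of the 27 at least 1.5-fold higher on the siYAP than on the siTAZ array (0.566% of all genes), and 0 were at least 1.5-fold lower (0.176%). At 1.2-fold, 4 were higher (UBA6 at 0.76, UBE2Z at 0.42, UBE2V1 at 0.41 and UBE2R2 at 0.28; 3.19% of all genes) and 0 lower (2.15%). The lowest in siYAP minus siTAZ were UBE2O (-0.14), UBE2E3 (-0.13), UBE2Q1 (-0.12) and UBE2E2 (-0.062). By any amount 9 were higher, 8 lower and 10 identical, while 19.9% of all genes were higher, 26.2% lower and 53.9% identical.

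**Figure D3:**
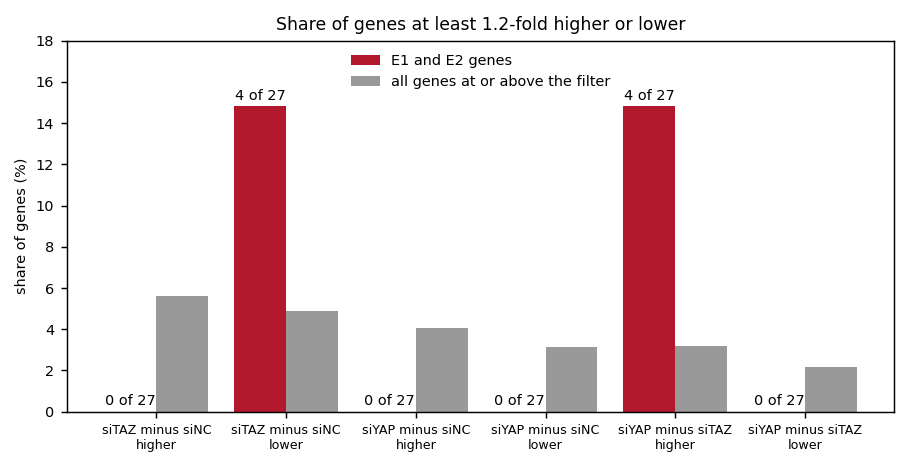
Share of genes (vertical axis, %) at least 1.2-fold higher or lower in siTAZ minus siNC, siYAP minus siNC and siYAP minus siTAZ, for the 27 E1 and E2 genes (red, with counts) and for all 10768 genes at or above the filter (grey). The 2 red bars, at 14.8% each, hold UBA6, UBE2V1, UBE2Z and UBE2R2; the other 4 red shares are 0.

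Many of these genes had values identical to the last deposited digit. Of the 27, 9 were identical on all 3 arrays (33.3%, and 41.1% of all genes at or above the filter). They were UBA7, UBE2A, UBE2D4, UBE2E1, UBE2G2, UBE2L6, UBE2N, UBE2QL1 and UBE2V2. UBE2A is the close relative of UBE2B, UBE2G2 is an E2 of endoplasmic reticulum quality control and UBE2L6 is the E2 for ISG15. Whether such ties mean a stable transcript was not tested. Another 11 genes had 3 different values (40.7%, and 28.5% of all genes).

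Symbols that only begin with a proteasome gene's name belonged to 5 further genes, none of them a proteasome subunit. The antisense transcripts PSMA3-AS1, PSMB8-AS1, PSMD6-AS2 and PSMG3-AS1 each had 1 value on all 3 arrays (5.21, 4.29, 3.22 and 5.11). PSMC3IP, a cofactor of meiotic recombinases, was at 6.50 on both knockdown arrays and 6.44 on the siNC array. Probe sets of antisense transcripts overlap other genes, and the strand they report was not checked here.

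The rest of the ubiquitin pathway was read from 7 lists written from general knowledge, with 226 genes in all, of which 175 had a named probe set and 170 passed the filter. On the siTAZ array 3 of the 170 were at least 1.5-fold lower than on the siNC array (1.76%, beside 1.02% of all genes) and 0 were higher. At 1.2-fold 12 were lower (7.06%, beside 4.89%) and 3 higher (1.76%, beside 5.62%), and the median was 0. On the siYAP array 1 was at least 1.5-fold lower (0.588%, beside 0.381%) and 0 higher, and at 1.2-fold 4 were lower (2.35%, beside 3.15%) and 3 higher (1.76%, beside 4.05%).

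CDC23, a core subunit of the anaphase-promoting complex, the E3 ligase of mitotic exit, was at 8.07 on the siTAZ array, 8.76 on the siYAP array and 8.87 on the siNC array. It was 1.74-fold lower than the control in siTAZ and 1.08-fold lower in siYAP, and the siTAZ value was the low one, as for UBA6. USP37, a deubiquitinase, showed the same order, with 6.14 on the siTAZ, 6.75 on the siYAP and 6.84 on the siNC array (1.62-fold lower in siTAZ). YOD1, a deubiquitinase that acts with the ATPase VCP, was low in both knockdowns, at 5.48 on the siTAZ array, 5.49 on the siYAP array and 6.16 on the siNC array.

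By list, the anaphase-promoting complex kept 17 of 17 genes, with 2 at least 1.2-fold lower on the siTAZ array (4.89% of all genes) and 0 on the siYAP array (3.15%). Its second low gene was CDC26 (5.90, 6.41 and 6.28 on the siTAZ, siYAP and siNC arrays), named like the next ones after the values were seen. The deubiquitinases kept 54 of 74 genes, with 21 lower, 12 higher and 21 identical on the siTAZ array and 23, 11 and 20 on the siYAP array. Over all genes at or above the filter 21.7% were lower and 29.7% higher on the siTAZ array, and 21.7% lower and 27.0% higher on the siYAP array. OTUD4 lay just under 1.5-fold in siTAZ, at 5.54 against 6.12 on the siNC array. The proteasome partners are mainly assembly, shuttling and regulatory factors. They include the proteasome subunits ADRM1 and SEM1, whose symbols lie outside the rule. ADRM1 was at 7.68, 7.75 and 7.68 on the siTAZ, siYAP and siNC arrays, and SEM1 at 4.98 on all 3. The list kept 24 of 30 genes with 1 at least 1.2-fold lower on the siTAZ array, a share near the 4.89% of all genes. That gene was AKIRIN2, a factor for nuclear import of proteasomes, at 8.02 on the siTAZ array, 8.37 on the siYAP array and 8.48 on the siNC array.

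The cullin-RING core list kept 25 of 38 genes. At 1.2-fold 2 were higher and 1 lower on the siTAZ array (5.62% and 4.89% of all genes). On the siYAP array 2 were higher and 0 lower (4.05% and 3.15%). The low gene was FBXW11, a substrate receptor that can recognise phosphorylated YAP and TAZ. It was at 6.40 on the siTAZ array, 6.82 on the siYAP array and 6.86 on the siNC array. The higher genes in both knockdowns were the COP9 signalosome subunits GPS1 and COPS7B. GPS1 was at 8.56, 8.57 and 8.16 on the siTAZ, siYAP and siNC arrays, and COPS7B was 1.21-fold higher than the control in both knockdowns. The HECT and RBR ligases kept 28 of 38 genes. On the siTAZ array 12 were higher, 11 lower and 5 identical, and on the siYAP array 10, 12 and 6. Over all genes 29.7% were higher and 21.7% lower on the siTAZ array, and 27.0% and 21.7% on the siYAP array. WWP2 was 1.22-fold higher on the siTAZ and 1.41-fold higher on the siYAP array, and HECTD2 was 1.27-fold lower on both. Among ubiquitin and ubiquitin-like proteins, 11 of 18 were kept. Of these, 2 were at least 1.2-fold lower on the siTAZ array (4.89% of all genes) and 1 on the siYAP array (3.15%). In both comparisons 0 were at least 1.2-fold higher (5.62% and 4.05% of all genes). UBL3 was low in both knockdowns, at 8.12 on the siTAZ, 8.20 on the siYAP and 8.56 on the siNC array, and SUMO2 was at 9.68, 9.94 and 10.01 on the same arrays. The other E1 and E2 enzymes kept 11 of 11 genes, and 0 of them were past 1.2-fold in either comparison with the control. Over all genes 4.89% were lower and 5.62% higher by as much on the siTAZ array, and 3.15% and 4.05% on the siYAP array. With only 11 genes, a count of 0 is not set apart from these shares. List medians lay between 0 and 0.0074 in both comparisons with the control.

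**Figure D4:**
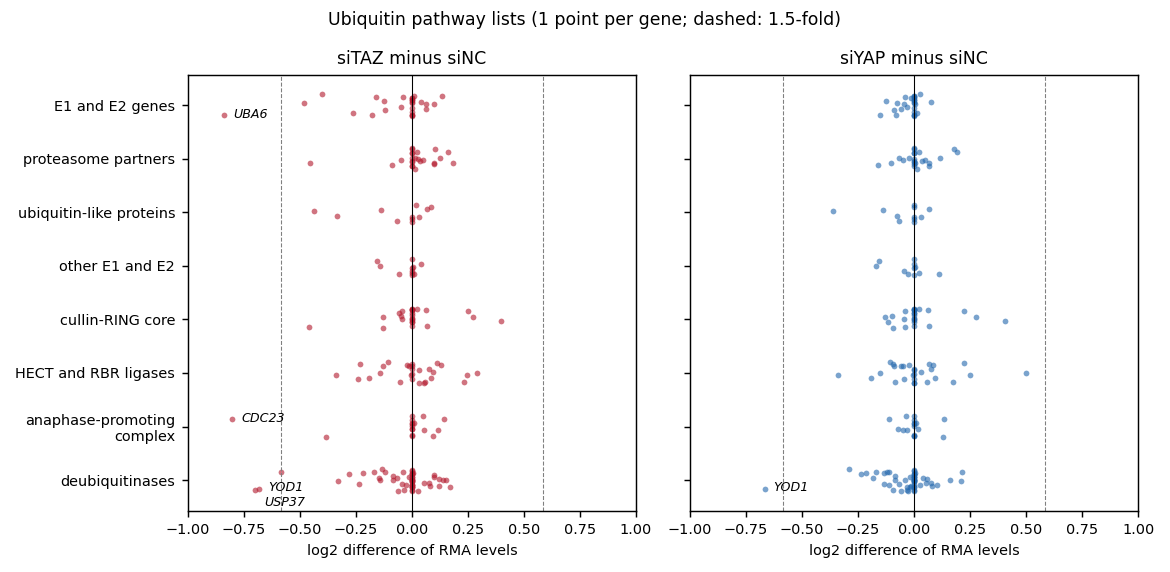
Difference of log2 RMA levels (horizontal axes) in siTAZ minus siNC (left) and siYAP minus siNC (right) for the 27 E1 and E2 genes and the 7 pathway lists; 1 point per gene at or above the filter, spread vertically only for legibility, with dashed lines at 1.5-fold. UBA6, CDC23, USP37 and YOD1 are past the lower line in the left panel and YOD1 in the right one.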

How the data were processed

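Total RNA of 3 A549 cultures (500 ng each, per the labels) was hybridised to Affymetrix whole-transcript arrays. The authors summarised the arrays with RMA, per the submitters' processing notes, and the deposited values, which name no scale, were taken as log2 because they span 0.96 to 13.5. For the RMA version, annotation and genome build, nothing was given in the sources used here. RMA sets every value relative to its array, so total RNA per cell is not measured. Array medians were 4.26 (siTAZ), 4.27 (siYAP) and 4.28 (siNC). Of 53617 probe sets, 16098 had 1 symbol in the platform annotation, 0 had several and 37519 were unnamed. All 16098 identifiers matched RefSeq GRCh38.p14, and 0 symbols changed. The brightest probe set stood for a gene. Differences, counts at 1.5-fold and 1.2-fold, and medians were computed with pandas 2.3.3. Simulated data with known changes, all well past 1.5-fold and without tied values, were used to check the counts at 1.5-fold. Changes near 1.5-fold, counts at 1.2-fold and medians were not checked. The alternatives tried were to drop the filter or raise it to the 75th percentile, median shift, loess (span 0.4, statsmodels 0.14.6), a new quantile normalization, all probe sets averaged, identical values left out, and 2 arrays as reference. The members and lists were chosen with earlier results of these data known.

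Every E1 and E2 gene could be named. Values on all arrays were due for the 6 genes with the most positive and the 6 with the most negative differences from siNC. They were also due for the 4 highest and 4 lowest between the knockdowns, UBA1, UBA6, the siRNA targets, and list genes past 1.5-fold. Further list genes were named after the values were seen. Values of some other E1 and E2 genes, among them UBE2G1, UBE2H, UBE2Q2, UBE2N, UBE2V2 and UBA7, were given beyond this choice. With 1 array per group, the number of arrays limits the precision.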

Additional observations from a re-analysis of the deposited data

How the results depend on the processing

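Over 18 counts and medians of the E1 and E2 genes and the pathway lists, 5 of 162 values under alternatives moved, by more than 1.5 times for a count or by 0.05 or more for a median. Part of the 162 could not move. The median over all genes was already 0, so the median shift changed nothing. Averaging probe sets could not alter E1 and E2 genes with 1 probe set each, and leaving out ties could not alter a count at 1.5-fold. Without members of identical value, the siTAZ median was -0.084. With the mean of 2 arrays as reference, 0 E1 and E2 genes and 0 pathway genes were at least 1.5-fold higher in siYAP minus siTAZ, and 0 pathway genes were at least 1.5-fold lower in siYAP minus siNC, as also with the filter at the 75th percentile, where YOD1 is not kept. The count of pathway genes at least 1.5-fold lower in siTAZ was 2 in place of 3 under these same settings. The reference in these is an average that holds the other group's value. UBA6 kept siTAZ differences of -0.86 to -0.80, UBE2V1 of -0.49 to -0.44, UBE2Z of -0.41 to -0.40 and UBE2R2 of -0.27 to -0.26 over the settings. Against the mean of siTAZ and siNC, UBA6 in siYAP was 0.34 higher, not lower. Of 524 single gene values, 20 moved by 0.05 or more, all with 2 arrays as reference. A change of sign was counted only for values past 1.5-fold, which UBA6 alone had, and the count was 0. Smaller values did change sign, such as UBE2V1 in siYAP minus siNC, from -0.076 to 0.17 with 2 arrays as reference. Filter changes, averaging of probe sets, leaving out ties and the median shift could not alter a single gene's value, so most of the 524 values could not move. The pathway list alternatives, the 5 further transcripts and the removal of pseudogenes were added after seeing the data. No paired analysis was possible because each group had 1 array. Dim genes near the filter limit the folds, and 1 array per group limits every value.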
